A study of Saccharomyces cerevisiae with 3 samples.

Results

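The seripauperins, or PAU genes, form a family of 24 protein-coding genes in the yeast gene table used here, and the array carried 22 probe sets whose annotation names at least 1 of them, out of 9275 non-control probe sets. Members were taken by that annotation, with no threshold on a measured value. Cells of Saccharomyces cerevisiae S288c, the haploid strain behind the yeast reference genome, were exposed for 5 h to the solvent dimethylformamide (DMF) alone, to 7.5 µM tomatidine in DMF or to 15 µM tomatidine in DMF. Tomatidine is the steroidal alkaloid that remains when the sugars are taken off the tomato glycoalkaloid tomatine. An Affymetrix yeast array was hybridised with total RNA for each condition, 3 arrays in all. There was no replicate, so there was no test, no p-value and no error between cultures, and every difference below describes these arrays, whose number limits the precision.

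PAU proteins are small secreted proteins related to the TIP1 and TIR cell wall mannoproteins, and the family is named for its poverty in serine beside those relatives. Most PAU genes lie near chromosome ends. As a group they are known to be turned on in cells short of oxygen, in fermentation and in the cold, and to be repressed in aerated cells through heme-dependent regulators. Sterol synthesis needs oxygen, and genes of low oxygen include several that bring sterols into the cell.

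Family members resemble each other so closely that most probe sets cannot be tied to a single gene. In Affymetrix naming the suffix f_at marks a probe set whose probes are shared within a gene family, and s_at one whose probes match several transcripts. Of the 22 PAU probe sets, 21 were of the f_at type and 1 was of the s_at type, and none was of the plain type designed without shared probes. The annotation gave 10 of them 1 gene and 12 of them several, up to 8, and it named no gene outside the family for any. All 24 PAU genes were named at least once, but only 10 had a probe set annotated to them alone. Because even those 10 are of the f_at type, a value given below beside a single gene may still hold signal of its relatives.

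Chains of shared annotation joined the probe sets into 8 blocks. The largest block held 13 probe sets and 14 genes, 2 blocks held 2 probe sets each, and 5 probe sets shared no gene with another member. The members are thus not independent readings of 22 genes.

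**Figure D1:**
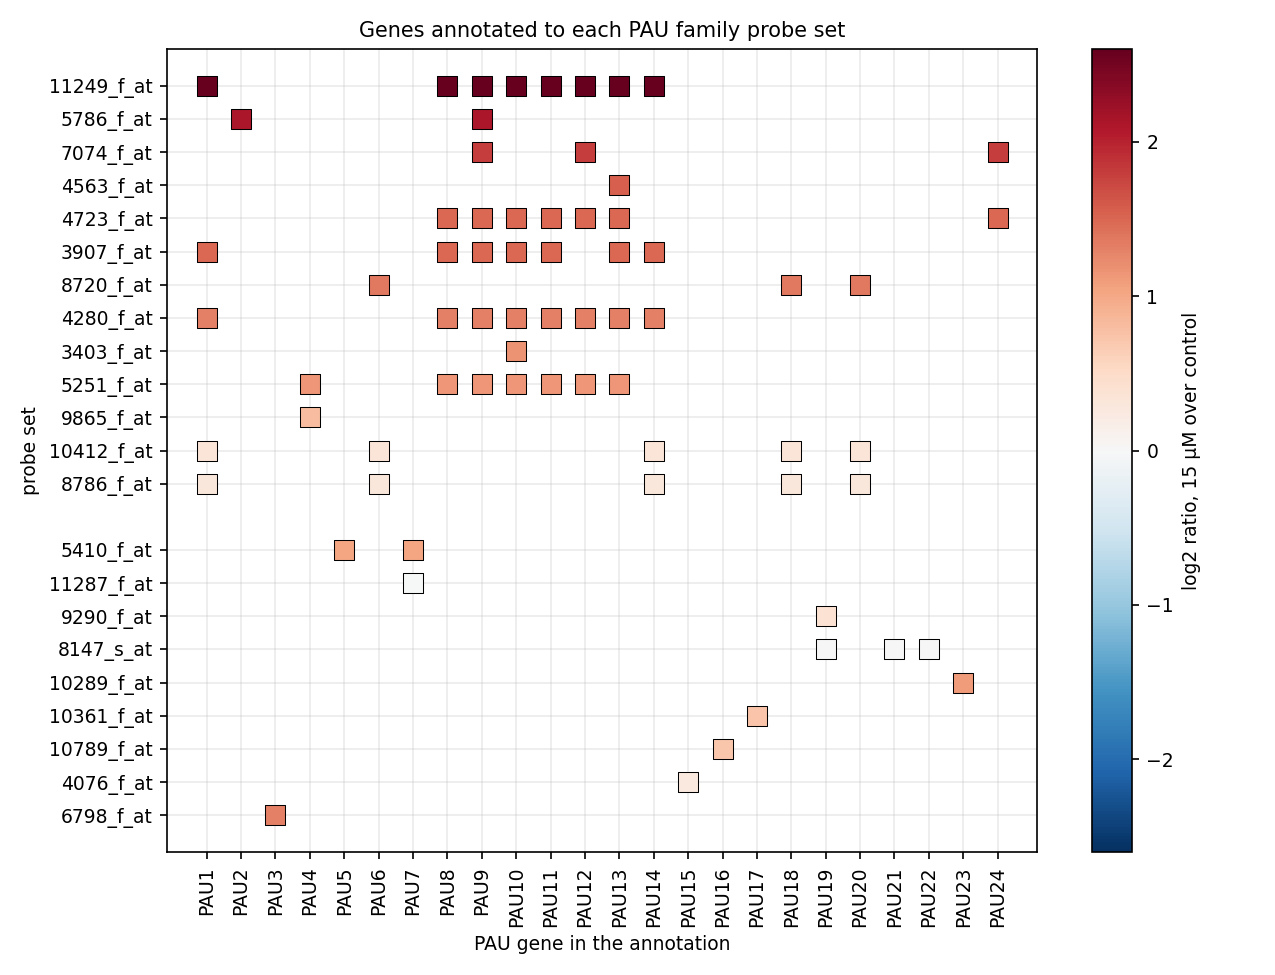
Each row is a PAU family probe set and each column a PAU gene, and a square marks a gene that the annotation gives to that probe set. Colour is the log2 ratio of 15 µM tomatidine over control. The 13 rows above the gap form the largest block of shared annotation, with ratios from 0.29 to 2.59, and the 9 rows below it run from -0.01 to 1.32.

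Signals were scaled to the median of each array and are in arbitrary array units. They were floored at 18.2, the 40th percentile of all scaled signals, before ratios were taken, and a probe set was called when it differed by 2-fold or more with its brighter array above that floor. A fold is written as "at least" when the dimmer of its arrays did not exceed the floor. Levels of different probe sets cannot be set against each other, so each is compared only with itself. On the control array 16 of the 22 probe sets were above the floor, at 7.5 µM 19 were and at 15 µM 21 were. The median scaled signal over the 22 was 31.9 on the control array, 38.4 at 7.5 µM and 85.9 at 15 µM, while the median of all non-control probe sets was set to 29.9 on each.

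At 15 µM tomatidine 13 of the 22 PAU probe sets were at least 2-fold higher than in the solvent control, against 2.01% of all non-control probe sets, and none was at least 2-fold lower, against 0.960%. The 15 µM signal was above the control by any amount in 21 of the 22, as in 44.3% of all non-control probe sets. Their median log2 ratio was 1.13, with a range of -0.01 to 2.59, where all non-control probe sets had a median of 0. For the same 21 the 15 µM array gave the highest of the 3 signals, as it did for 29.9% of all non-control probe sets, but 1 of them, 8147_s_at, was under the floor on every array. The exception was 11287_f_at, annotated to PAU7, which had 29.7 on the control array, 26.3 at 7.5 µM and 29.4 at 15 µM. In 4 of the 13 called probe sets the control signal was under the floor, so that their folds are lower bounds.

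The largest ratios came from the block annotated mainly to PAU1 and PAU8 to PAU14. Probe set 11249_f_at, annotated to 8 genes (PAU1 and PAU8 to PAU14), had a signal of 13.2 on the control array, 41.0 at 7.5 µM and 110.0 at 15 µM, at least 6.04-fold higher at 15 µM than in the control. It was the 1 member that was called over the control at both doses with its control signal under the floor. Probe set 5786_f_at, annotated to PAU2 and PAU9, had 21.3 on the control array, 27.7 at 7.5 µM and 93.1 at 15 µM, and was 4.36-fold higher at 15 µM. Probe set 7074_f_at, annotated to PAU9, PAU12 and PAU24, had 29.2 on the control array, 45.6 at 7.5 µM and 100.9 at 15 µM, a 3.46-fold difference at 15 µM. PAU24 carries the older name DAN3 in the gene table, as PAU23 carries DAN2. These 3 were also the members that passed a 3-fold rule at 15 µM, which 0.722% of all non-control probe sets passed.

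Other shared probe sets of the same block lay between 2-fold and 3-fold at 15 µM. Probe set 4723_f_at, annotated to 7 genes with PAU24 among them, had 35.3 on the control array, 77.7 at 7.5 µM and 99.98 at 15 µM, and was 2.83-fold higher. Most of that difference was already present at 7.5 µM, where the signal was 2.20-fold above the control. Probe set 3907_f_at, also with 7 genes, had 36.8 on the control array, 50.9 at 7.5 µM and 102.9 at 15 µM, and was 2.80-fold higher at 15 µM. Probe set 4280_f_at carried the same 8 genes as 11249_f_at and had 56.3 on the control array, 78.2 at 7.5 µM and 140.7 at 15 µM, 2.497-fold higher at 15 µM. Probe set 5251_f_at, whose 7 genes include PAU4, had 34.2 on the control array, 35.2 at 7.5 µM and 75.4 at 15 µM, 2.21-fold higher at 15 µM. Its 2 lower signals were nearly equal, so that the step lay between the doses.

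The 3 probe sets annotated to a single gene of this block were also highest at 15 µM. The probe set of PAU13, 4563_f_at, had 51.7 on the control array, 67.7 at 7.5 µM and 152.4 at 15 µM, and was 2.95-fold higher at 15 µM. That of PAU10, 3403_f_at, had 41.6 on the control array, 58.4 at 7.5 µM and 93.6 at 15 µM, 2.25-fold higher. That of PAU4, 9865_f_at, had 71.3 on the control array, 80.6 at 7.5 µM and 123.7 at 15 µM. Its 1.73-fold difference was the nearest below the 2-fold rule, and among the called probe sets with all arrays above the floor 10289_f_at, at 2.16-fold, was the nearest above it.

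Probe sets that name PAU6, PAU18 and PAU20 diverged. Probe set 8720_f_at, annotated to these 3 genes only, had 15.1 on the control array, 20.7 at 7.5 µM and 46.9 at 15 µM, at least 2.57-fold higher at 15 µM. Probe sets 10412_f_at and 8786_f_at add PAU1 and PAU14 to the same 3 genes, and neither reached 2-fold. The first had 64.8 on the control array, 61.6 at 7.5 µM and 82.1 at 15 µM, and the second had 73.1 on the control array, 59.2 at 7.5 µM and 89.7 at 15 µM. Their log2 ratios at 15 µM, 0.34 and 0.29, were the lowest of the largest block, although PAU1 and PAU14 also stand in the annotation of 11249_f_at.

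**Figure D2:**
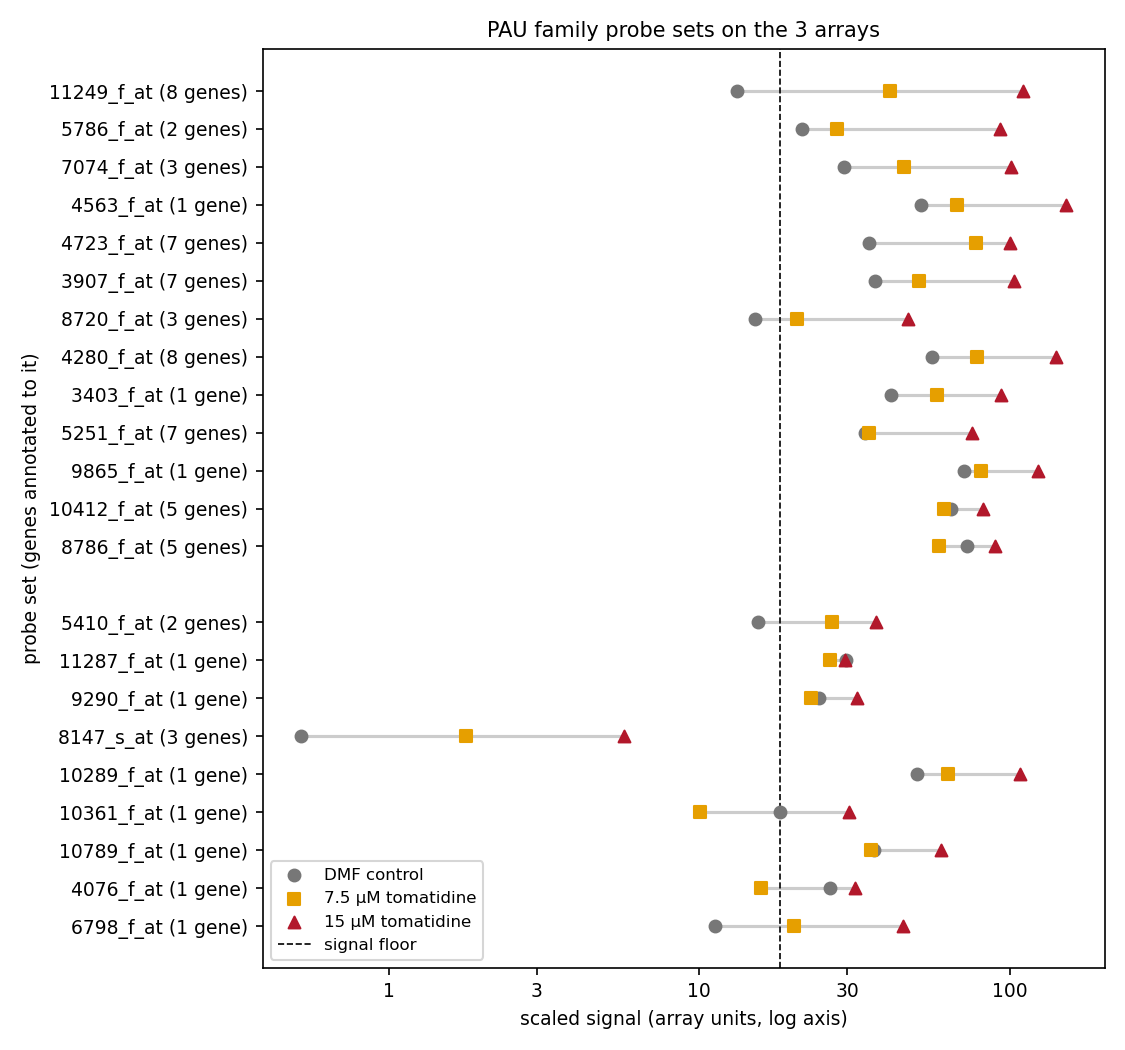
Scaled signal of each PAU family probe set (log axis) on the DMF control, 7.5 µM and 15 µM arrays, with the number of genes annotated to it in brackets and the signal floor of 18.2 as a dashed line. The 13 upper rows are the largest block of shared annotation, and the triangle of the 15 µM array lies furthest right in every row except 11287_f_at, where it is at 29.4 and the control at 29.7.

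Probe sets with identical annotation gave a measure of how far readings of the same genes can part. Probe sets 10412_f_at and 8786_f_at differed by 0.05 in log2 ratio at 15 µM, but 11249_f_at exceeded 4280_f_at by at least 1.27, since its control signal was under the floor. Over 210 genes with several single-gene probe sets above the floor on at least 1 array, the pooled SD of log2 ratios within a gene was 0.40 at 15 µM. This spread comes from different probe sets reading the same pair of RNA samples and leaves out how cultures differ. Among the 43 pairs of PAU probe sets that share a gene, the median absolute difference in log2 ratio at 15 µM was 0.47, and among the 188 pairs that share none it was 0.73. The pairs reuse the same members and include 8147_s_at, whose ratio the floor fixed at 0.

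Outside the largest block 3 of 9 probe sets were at least 2-fold higher at 15 µM, with a median log2 ratio of 0.71, and inside it 10 of 13 were, with a median of 1.36. Of all non-control probe sets 2.01% were. The 9 include 8147_s_at, which was under the floor on every array and could not be called. PAU23, read by 10289_f_at, had 50.2 on the control array, 63.2 at 7.5 µM and 108.3 at 15 µM, and was 2.16-fold higher at 15 µM. PAU3, read by 6798_f_at, had 11.2 on the control array, 20.1 at 7.5 µM and 45.5 at 15 µM, at least 2.49-fold higher. Probe set 5410_f_at, annotated to PAU5 and PAU7, had 15.4 on the control array, 26.8 at 7.5 µM and 37.1 at 15 µM, at least 2.04-fold higher. The probe set annotated to PAU7 alone is the one given above that did not differ by 2-fold in any comparison.

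Below 2-fold lay PAU17, PAU16, PAU19 and PAU15. PAU17, read by 10361_f_at, had 18.2 on the control array, which is the floor itself, 10.1 at 7.5 µM and 30.3 at 15 µM. PAU16, read by 10789_f_at, had 36.6 on the control array, 35.8 at 7.5 µM and 59.97 at 15 µM. PAU19, read by 9290_f_at, had 24.3 on the control array, 22.9 at 7.5 µM and 32.1 at 15 µM. PAU15, read by 4076_f_at, had 26.5 on the control array, 15.8 at 7.5 µM and 31.6 at 15 µM. In all of these 4 the 15 µM array was the highest and the 7.5 µM array the lowest, although for PAU17 neither of its lower signals exceeded the floor. The single s_at probe set, 8147_s_at, annotated to PAU19, PAU21 and PAU22, had 0.52 on the control array, 1.78 at 7.5 µM and 5.74 at 15 µM. All 3 signals are under the floor, so no fold is given for it.

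At 7.5 µM 2 of the 22 probe sets were at least 2-fold higher than in the control, against 1.40% of all non-control probe sets, and none was at least 2-fold lower, against 0.539%. These were 11249_f_at, at least 2.25-fold higher, and 4723_f_at. The median log2 ratio was 0.18, and the floored values ran from -0.54 for PAU15 to 1.17 for 11249_f_at, both of them bounds set by the floor, since the 7.5 µM signal of PAU15 and the control signal of 11249_f_at were under it. The 7.5 µM signal was above the control in 15 of the 22, as in 41.9% of all non-control probe sets, and was the lowest of the 3 in the other 7. These counts use unfloored signals and include 8147_s_at and 10361_f_at, whose control and 7.5 µM signals did not exceed the floor. In 15 members the signals were ordered control, 7.5 µM, 15 µM from low to high, an order found in 15.2% of all non-control probe sets.

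The doses were also set directly against each other, without the control array. The unfloored 15 µM signal was above the 7.5 µM signal in 22 of 22, as in 51.2% of all non-control probe sets, but for 8147_s_at both signals were under the floor, where they have no order. At least 2-fold higher at 15 µM than at 7.5 µM were 8 of 22, against 0.658% of all non-control probe sets, and none was at least 2-fold lower, against 0.280%. The median log2 ratio was 0.76. Probe set 5786_f_at led with 3.36-fold, followed by 11249_f_at with 2.68-fold. The others were 8720_f_at (2.27-fold), PAU3 (2.26-fold), PAU13 (2.25-fold), 7074_f_at (2.21-fold), 5251_f_at (2.14-fold) and 3907_f_at (2.02-fold). All 8 were among the 13 called over the control at 15 µM.

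The mannoproteins to which PAU proteins are related were read by plain probe sets, without the family suffix. DAN4, a cell wall mannoprotein of cells without oxygen, had 25.7 on the control array, 518 at 7.5 µM and 914 at 15 µM. DAN1, of the same kind, had 16.6 on the control array, 308 at 7.5 µM and 452 at 15 µM. For both, the log2 ratio of 7.5 µM over control (4.33 for DAN4 and at least 4.08 for DAN1, whose control signal was under the floor) exceeded that of 15 µM over 7.5 µM (0.82 for DAN4 and 0.55 for DAN1). TIR4, another mannoprotein gene of low oxygen, had 48.7 on the control array, 78.9 at 7.5 µM and 226 at 15 µM, so that 1.52 of its log2 ratio of 2.21 lay between the doses. TIR1 and TIR3 were above 2-fold at both doses, with log2 ratios of 1.21 and 1.60 at 7.5 µM and of 1.44 and 2.22 at 15 µM.

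TIR2, CWP1 and CWP2 differed by less than 2-fold at either dose, with log2 ratios at 15 µM of 0.35, -0.49 and -0.45. TIP1, the founding member of the group, ran opposite, with 1211 on the control array, 282 at 7.5 µM and 138 at 15 µM. Of the 9 genes of this list 5 were at least 2-fold higher at 15 µM and 1 was at least 2-fold lower. Of all non-control probe sets 2.01% and 0.960% were. At 7.5 µM 4 of the 9 were higher and 1 lower, against 1.40% and 0.539%. Between the doses TIR4 was the 1 called higher at 15 µM and TIP1 the 1 called lower, against 0.658% and 0.280%. Whether the lists differ in their dependence on dose was not tested.

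**Figure D3:**
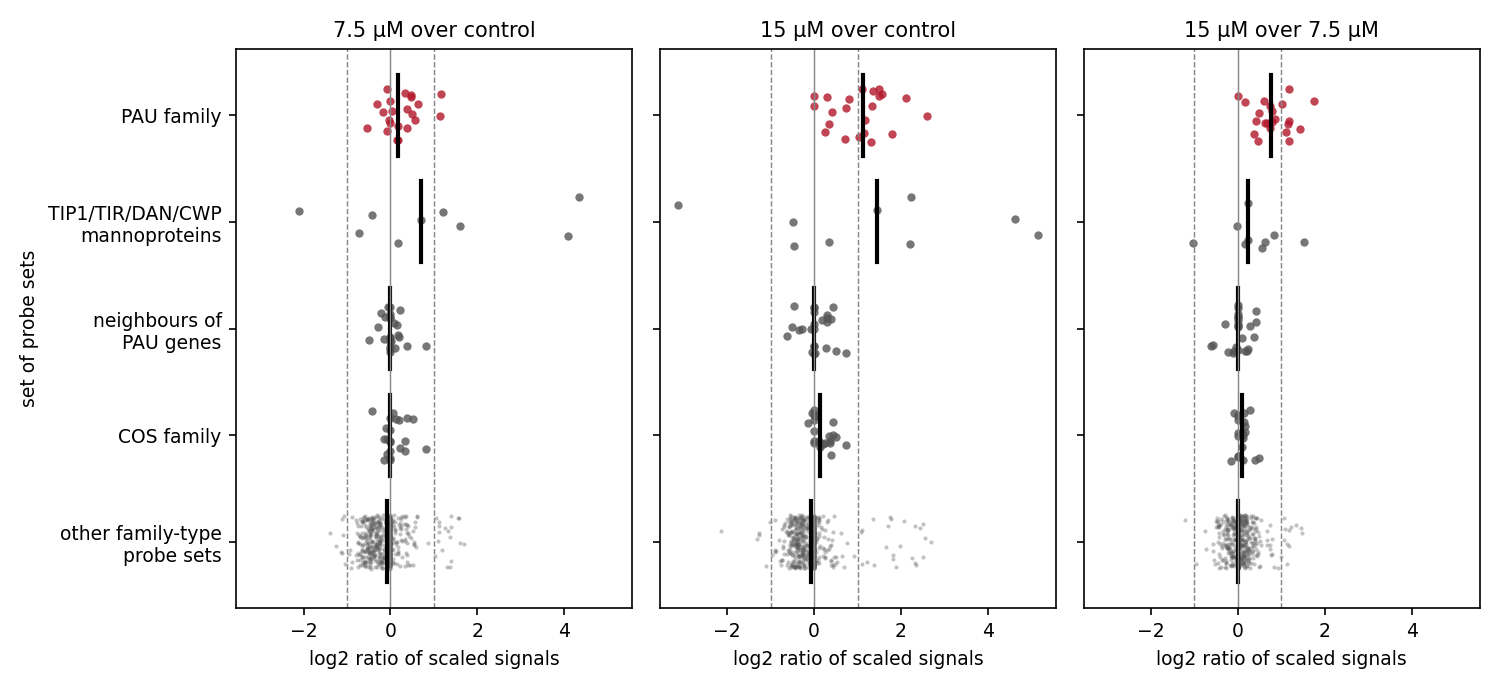
Log2 ratios of scaled signals in each comparison, 1 point per probe set, with the set's median as a black bar and 2-fold as dashed lines. The PAU family median is 0.18 at 7.5 µM over control, 1.13 at 15 µM over control and 0.76 between the doses, while the medians of the neighbours and of the other family-type probe sets lie within 0.1 of 0 in each panel.

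Since nearly all PAU probe sets are of the f_at type, the other 565 probe sets of that type were set beside them. Of these 4.25% were at least 2-fold higher at 15 µM than in the control, 3.36% at 7.5 µM than in the control and 2.12% at 15 µM than at 7.5 µM, and their median log2 ratio at 15 µM over control was -0.07. Their signal at 15 µM was above the control in 166 of 565. The COS genes, another repeated family near chromosome ends, were read by 22 probe sets, of which 16 exceeded the floor on 1 or more arrays. None of the 22 was called in any comparison, and their median log2 ratio at 15 µM was 0.13. Their unfloored 15 µM signal was still above the control in 19 of 22, against 44.3% of all non-control probe sets. It was above the 7.5 µM signal in 18 of 22, against 51.2%. The 7.5 µM signal was above the control in 11 of 22, against 41.9%. A lean toward higher signal at 15 µM was thus not particular to the PAU family. At 15 µM over control 2.01% of all non-control probe sets were called higher and 0.960% lower, with smaller shares in the other comparisons. No call among 22 is near those shares. COS probe sets of the f_at type are also counted among the 565.

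Genes beside the PAU genes were examined in the same way. In the gene order of the R64 assembly, 18 of the 24 PAU genes had at most 5 protein-coding genes between them and a chromosome end, PAU20 had 6, and PAU7, PAU2, PAU17, PAU5 and PAU23 had 14, 29, 38, 45 and 99. The 24 genes had 45 neighbours outside the family, and 25 of these had a probe set of their own, 17 of them above the floor on at least 1 array. None of the 25 was called at either dose or between the doses, and their median log2 ratio at 15 µM was 0. At 15 µM over control 2.01% of all non-control probe sets were called higher and 0.960% lower. No call among 25 is near those shares. Neighbours under the floor on every array have ratios fixed at 0 and could not be called. The highest log2 ratio of the 25 at 15 µM was 0.73, that of COS6 beside PAU12, which is counted in the COS family too. PAU23, which is far from an end, lies between YLR036C and COX12, a cytochrome c oxidase subunit gene, whose log2 ratios at 15 µM were -0.36 and -0.45 against 1.11 for PAU23. PAU17 lies between HSP104, a protein disaggregase gene, at 0.03 and SSA2, an Hsp70 chaperone gene, at -0.51.

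Of the 8 listed regulators of low oxygen genes, none was called at 15 µM over control by the floored 2-fold rule. Of all non-control probe sets 2.01% were called higher and 0.960% lower there, so no call among 8 is near those shares. UPC2, an activator of sterol and low oxygen genes, had 10.4 on the control array, 21.3 at 7.5 µM and 29.0 at 15 µM. At 15 µM it was at least 1.59-fold higher. UPC2 may still have differed by 2-fold, since its control signal was under the floor. Its relative ECM22 had a log2 ratio of -0.49 at 15 µM. The repressor genes ROX1 and MOT3 had 0.27 and 0.17 at 15 µM, and ROX1 was 2.08-fold higher at 7.5 µM with a signal of 57.7 against 27.7 on the control array. The general corepressor genes TUP1 and CYC8 had -0.25 and 0.18 at 15 µM, and SUT1, a regulator of sterol uptake, had -0.42. HAP1, the heme-responsive activator, carries a Ty1 element in S288c, and its probe sets disagreed, at 0.97 for 10058_at but -0.46 for 3270_f_at and -0.58 for 3493_f_at. Those of the f_at type may hold signal of related sequences. The brightest, 3270_f_at, stands for HAP1 in the count, and 10058_at, at 1.96-fold, was also below 2-fold.

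The 8 probe sets for added bacterial and phage transcripts (spikes) were brighter on the control array after median scaling, by 1.78-fold over the 15 µM array and by 1.61-fold over the 7.5 µM array, and scaling on them called 20 of 22 PAU probe sets higher at 15 µM, against 16.4% of all non-control probe sets. With the floor at the 60th percentile (45.6) 9 of 22 were called, against 1.20% of all non-control probe sets, as 5251_f_at, 8720_f_at, 5410_f_at and 6798_f_at dropped out. S288c is of the alpha mating type, and on these arrays the 4 alpha-specific genes had scaled signals from 265 to 1937, and the 7 probe sets of a-specific genes were under the floor on each array. In RNA of a whole culture, fewer cells that express a gene and less RNA per cell cannot be told apart.

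**Figure D4:**
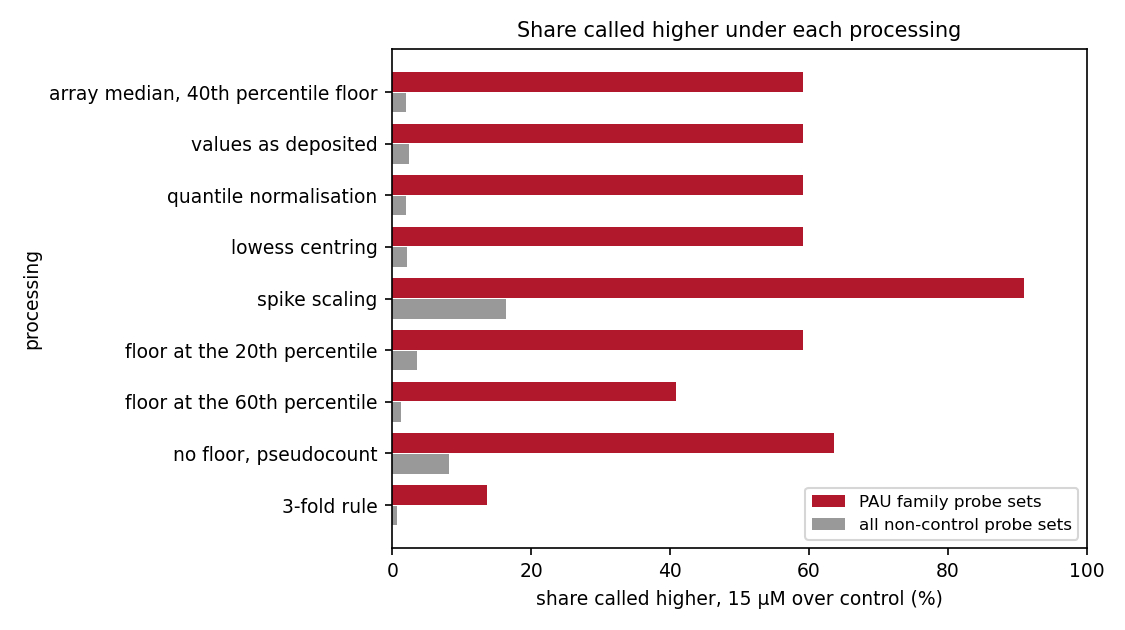
Share of the 22 PAU family probe sets and of the 9275 non-control probe sets called higher at 15 µM over control under each processing. The family's count is 13 of 22 with the values as deposited, with quantile normalisation and with lowess centring, 20 with spike scaling and 3 with the 3-fold rule.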

How the data were processed

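The file deposited by the authors gives a linear intensity for every probe set on every array. Their probe summary, background correction and scaling were not given in the sources used here. After trimming 2% of probe sets at either end, the deposited intensities averaged 100.1 on each array, so whole arrays had been scaled and a change in total messenger RNA cannot be seen. Here the signals were divided by the array's median over the 9275 non-control probe sets, brought to a common level, floored at the 40th percentile and put on the log2 scale. With 1 array per condition, a 2-fold rule of size stands in place of a test. It was computed over all non-control probe sets. A check on simulated data placed known changes only in probe sets brighter than most PAU members. It does not cover dim signals near the floor. Members, lists and rules were chosen with earlier results of these data known. By the naming rule every PAU probe set is given with its values, and the mannoprotein and regulator genes. Where a listed gene had several probe sets, counts use the brightest. Gene names came from the platform annotation, and gene order from the R64 gene table. The data name no genome build, and coordinates are left out. Alternatives were the deposited values, quantile normalisation, lowess centring (span 0.3), spike scaling, other floors (20th or 60th percentile), a pseudocount of 0.58 without a floor, a 3-fold rule, and members with 1 gene or above the floor only. The tools were Python 3.11.15, statsmodels 0.14.6, numpy 2.4.6, matplotlib 3.10.9 and pandas 2.3.3.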

Additional observations from a re-analysis of the deposited data

How the results depend on the processing

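No PAU probe set was called lower, and no median changed sign, under any alternative tried. Counts of higher calls among the 22 were 13, 2 and 8 for 15 µM over control, 7.5 µM over control and 15 µM over 7.5 µM. Spike scaling gave 20 and 8 for 15 µM and 7.5 µM over control, against 16.4% and 10.3% of all non-control probe sets, with medians of 1.71 and 0.75, or 1.30 and 0.47 relative to all probe sets, whose own medians it moved by 0.41 and 0.28. The 60th percentile floor left 0 at 7.5 µM and 5 between the doses, against 0.733% and 0.259% of all probe sets, and brought the median at 15 µM to 0.56 and that at 7.5 µM to 0, since it raises dim signals to one value. The 3-fold rule left 3, 0 and 1, against 0.722%, 0.270% and 0.0647%. The 10 probe sets annotated to 1 gene gave 4, 0 and 2, against 2.01%, 1.40% and 0.658% of all non-control probe sets. The 12 annotated to several genes gave 9, 2 and 6. Median log2 ratios at 15 µM over control were 0.76 for the 10 and 1.34 for the 12, so the larger ratios lay in the shared probe sets. Of 22 members, 9 were called at 15 µM under every scaling and floor, and 1, 11287_f_at, under none. No paired analysis was possible because each condition has 1 array. Signals near the floor limit 6 members on the control array.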

Other observations

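Among the 24 f_at probe sets outside the PAU family that were at least 2-fold higher at 15 µM than in the control, 15 were annotated to the same 3 genes, YHL009W-B, YHL009W-A and YJL114W. These were all the f_at probe sets with that annotation. Their median log2 ratio was 2.25 at 15 µM, 1.25 at 7.5 µM and 1.004 for 15 µM over 7.5 µM, with 12 of the 15 at least 2-fold higher at 7.5 µM. Of the rest, 7 came from the 290 f_at probe sets outside the family that had no entry in the annotation. The group of 15 was singled out after its values were seen.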
